A study of Homo sapiens with 4 samples.

Results

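The 4 human HOX gene clusters are the subject here, in chromatin immunoprecipitation and sequencing (ChIP-seq) of the human leukaemia line K562, whose cells have erythroid features. They were chosen by position and not by signal: HOXA at chr7:27130001-27255000, HOXB at chr17:46600001-46810000, HOXC at chr12:54330001-54450000 and HOXD at chr2:176940001-177060000, all on hg19. Together they hold 575 tiles of 1 kb, of 2598309 tiles with a read on 24 chromosomes: 125 in HOXA, 210 in HOXB, 120 in HOXC and 120 in HOXD. The 200 kb on each side of a cluster, 400 tiles per cluster and 1600 in all, served as its flanks. DPF2 was immunoprecipitated for 2 libraries and crotonylated lysine 14 of histone H3 (H3K14cr) for the other 2, all from wild-type K562 cells with no treatment in the labels. No input or control library was analysed here, so a cluster is compared with its own flanks and with the genome as a whole in the same library.

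HOX genes encode homeodomain transcription factors that give cells their position along the body axis and are also used in blood formation. They lie in 4 tight clusters in which the order of genes on the chromosome follows the order of their use, and whole clusters are known to be kept silent by Polycomb or opened by Trithorax proteins and BAF remodelling complexes. DPF2 is a BAF subunit whose paired PHD fingers read acylated lysine 14 of histone H3, and crotonylation is one such acyl mark, placed by acetyltransferases that also use crotonyl-CoA. Expression was not measured in these libraries.

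In the RefSeq gene table of GRCh38.p14 the clusters hold 39 HOX protein genes. HOXA has 11, which run with rising coordinate between SKAP2 and EVX1 and end with HOXA13. HOXB has 10, between SKAP1 and TTLL6, and its widest gap separates HOXB13, at the high-coordinate end, from HOXB9. HOXC has 9, between CALCOCO1 and SMUG1, with HOXC13 at the low-coordinate end. HOXD has 9, between EVX2 and MTX2, with HOXD13 at the low-coordinate end and HOXD1 at the high one. That table is on another build than the ChIP-seq files, so it gives names and order only, and no tile below is assigned to a gene.

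Promoter sequences in RefSeq, GRCh38.p14, matched 20 of the 39 genes, 9 in HOXA, 1 in HOXB, 2 in HOXC and 8 in HOXD. Over the 250 bases before the gene's start, the 20 held a median of 20.5 CG dinucleotides, against 17 over 15841 protein-coding genes, and 12 of the 20 were at or above that coding median. Their median GC content was 59.0%, against 62.4% over protein-coding genes. The matched promoter with the most CG in each cluster (HOXC5 ties with HOXC4) is shown to make this spread visible; CG, which reads the same on both strands, is in capitals, and 96.9% of coding promoters hold at least 1. The positions, on GRCh38.p14, are chr7:27200092-27200341 on the minus strand for HOXA13, chr17:48531012-48531261 on the minus strand for HOXB1, chr12:54016638-54016887 on the plus strand for HOXC4 and chr2:176188418-176188667 on the plus strand for HOXD1.
HOXA13: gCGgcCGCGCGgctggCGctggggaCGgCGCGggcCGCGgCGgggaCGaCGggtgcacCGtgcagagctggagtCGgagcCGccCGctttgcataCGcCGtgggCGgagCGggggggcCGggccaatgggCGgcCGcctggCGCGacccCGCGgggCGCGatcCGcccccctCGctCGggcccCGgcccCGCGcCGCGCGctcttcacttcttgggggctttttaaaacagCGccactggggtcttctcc
HOXB1: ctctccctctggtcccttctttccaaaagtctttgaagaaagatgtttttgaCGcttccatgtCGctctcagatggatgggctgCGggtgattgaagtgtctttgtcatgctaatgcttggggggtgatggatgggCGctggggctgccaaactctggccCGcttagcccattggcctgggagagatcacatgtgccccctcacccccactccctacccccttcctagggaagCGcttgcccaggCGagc
HOXC4: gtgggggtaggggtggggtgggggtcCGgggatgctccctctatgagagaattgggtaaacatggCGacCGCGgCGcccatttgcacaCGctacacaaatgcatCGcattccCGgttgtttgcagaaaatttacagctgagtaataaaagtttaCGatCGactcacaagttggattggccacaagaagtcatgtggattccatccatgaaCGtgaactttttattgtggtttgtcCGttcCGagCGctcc
HOXD1: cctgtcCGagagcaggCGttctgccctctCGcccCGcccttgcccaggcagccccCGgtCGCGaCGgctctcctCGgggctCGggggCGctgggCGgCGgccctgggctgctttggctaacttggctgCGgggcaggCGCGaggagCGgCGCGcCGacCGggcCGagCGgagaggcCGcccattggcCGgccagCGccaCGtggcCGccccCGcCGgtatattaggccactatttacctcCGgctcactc
HOXA13, a gene of limb and hindgut patterning, has 40 CG and HOXD1 has 31, while HOXC4 has 14 and HOXB1, a hindbrain gene, has 7. The matched promoters are therefore mixed in composition. With 1 match in HOXB and 2 in HOXC, they do not allow the clusters to be compared.

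The recovered depth was 7787444 and 13317496 reads in DPF2 replicates 1 and 2 and 10880366 and 17369133 reads in H3K14cr replicates 1 and 2. Levels are in CPM per 1 kb tile, the deposited signal summed over the tile and divided by 10, and so are relative to the depth of the library. A covered tile averaged 0.385 CPM in each library. Over the tiles of each cluster both libraries of the same antibody agreed within sampling noise (chi-square per degree of freedom 0.855 to 1.1), so they count as 1 sample per antibody, and nothing in the labels says that they came from separate cultures. The values of both libraries are given throughout, and intervals and p-values cover counting or technical spread only. As a check of the cell line, chr22:23000001-24000000, part of a segment known to be amplified in K562, stood at 5.93 to 6.59 times the median level of 1 Mb windows in the 4 libraries. The level of a tile follows local copy number as well as binding, and without an input library these cannot be told apart.

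Both antibodies were higher over all 4 clusters than over their flanks, in every library. The HOXA cluster had 0.515 and 0.545 CPM per tile for DPF2 and 0.551 and 0.567 CPM for H3K14cr, against 0.205, 0.230, 0.20 and 0.206 CPM over its flanks in the same 4 libraries. The HOXB cluster had 1.14 and 1.1 CPM for DPF2 and 1.45 and 1.4 CPM for H3K14cr, against 0.727, 0.740, 0.757 and 0.766 CPM over its flanks. No library of any cluster overlapped its flank value.

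The HOXC cluster had 1.29 and 1.23 CPM for DPF2 and 1.64 and 1.59 CPM for H3K14cr, against 0.638, 0.630, 0.635 and 0.635 CPM over its flanks. The HOXD cluster had 0.804 and 0.813 CPM for DPF2 and 0.844 and 0.826 CPM for H3K14cr, against 0.299, 0.316, 0.285 and 0.302 CPM over its flanks. In CPM the order was therefore HOXC, HOXB, HOXD and HOXA in all 4 libraries, and for either antibody no libraries of neighbours in this order overlapped.

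**Figure D1:**
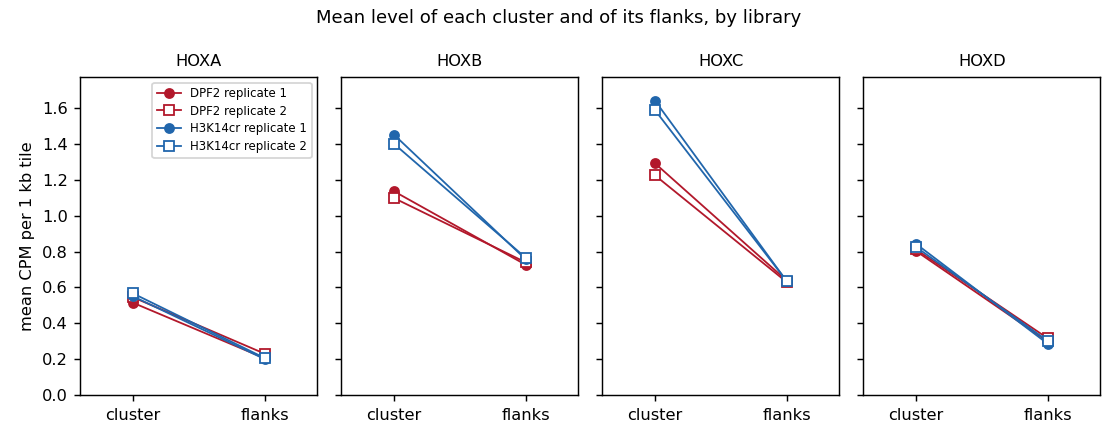
Mean CPM per 1 kb tile (y axis) of each HOX cluster and of its 200 kb flanks, with 1 line for each of the 4 libraries. Every line falls towards the flanks; the H3K14cr lines start above the DPF2 lines in HOXB and HOXC, and in HOXD all 4 lie between 0.804 and 0.844 CPM.

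Relative to flanks, with the libraries of an antibody pooled, HOXA was 2.42-fold for DPF2 (95% exact binomial interval 2.26 to 2.60) and 2.75-fold for H3K14cr (2.59 to 2.93). HOXB was 1.51-fold (1.46 to 1.57) and 1.87-fold (1.81 to 1.92). HOXC was 1.98-fold (1.89 to 2.07) and 2.54-fold (2.45 to 2.63). HOXD was 2.61-fold (2.47 to 2.77) and 2.82-fold (2.68 to 2.97). With these 200 kb flanks HOXD and HOXA led and HOXB came last for both antibodies. Of the 6 pairs of clusters, HOXD and HOXA did not differ beyond counting error (for DPF2 a ratio of 1.08, interval 0.986 to 1.18, and for H3K14cr 1.02, interval 0.946 to 1.11). The intervals of the other 5 pairs left out 1 for both antibodies; the nearest to 1 was HOXA over HOXC for H3K14cr, at 1.09 (1.01 to 1.17). The order depends on the width of the flanks. With 100 kb flanks HOXC was the highest (DPF2 2.96-fold, H3K14cr 3.72-fold), followed by HOXA at 2.37-fold and 2.70-fold, HOXD at 2.23-fold and 2.26-fold and HOXB at 1.33-fold and 1.59-fold. With 500 kb flanks HOXC came last (DPF2 1.51-fold, H3K14cr 1.82-fold), below HOXB at 1.61-fold and 2.0-fold.

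The flanks themselves differ. Relative to the mean of their chromosome, the flanks stood at 0.634 for DPF2 and 0.601 for H3K14cr around HOXA and at 0.744 and 0.719 around HOXD, both below 1, but at 1.30 and 1.26 around HOXB and 1.53 and 1.53 around HOXC. The clusters themselves stood at 1.55 and 1.66 times the chromosome mean in HOXA, 1.99 and 2.37 in HOXB, 3.05 and 3.9 in HOXC, and 1.96 and 2.04 in HOXD. HOXA is thus a moderate level in a low surround, and HOXC a high level in a high one. The sides of HOXA were unlike. For DPF2 it stood at 3.55 and 3.26 times its lower flank and 1.95 and 1.86 times its upper one. For H3K14cr it stood at 4.04 and 3.93 times the lower flank and 2.09 and 2.12 times the upper one.

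Windows of the same length, laid end to end along the chromosomes, give the scale of these folds. These windows were cut on a fixed grid with the HOX loci not left out, while the HOX windows were placed on the clusters. HOXA, HOXC and HOXD were at least 1.5-fold over their flanks in both libraries of each antibody, and HOXB was for H3K14cr only, since its DPF2 libraries gave 1.56 and 1.49. Of 17345 windows of 125 kb, the length of HOXA, 3.04% passed that level for DPF2 and 4.73% for H3K14cr. The shares were 3.16% and 4.93% of 10372 windows of 210 kb, the length of HOXB, and 3.01% and 4.73% of 18161 windows of 120 kb, the length of HOXC and HOXD. Windows at least as high as HOXA numbered 7 for DPF2 and 6 for H3K14cr, and as high as HOXD 6 and 8, all under 0.05% of the windows. For HOXC they were 59 (0.325%) and 15 (0.0826%), and for HOXB 336 (3.24%) and 115 (1.11%).

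Along HOXA, HOXC and HOXD the rise took in every 10 kb segment. In these segments, both libraries were above the flank mean in 13 of 13 segments of HOXA, 12 of 12 of HOXC and 12 of 12 of HOXD for each antibody. Over the flanks, 11 to 19 of 40 segments were. Segments at least 2-fold over the flank mean in both libraries numbered 8 for DPF2 and 9 for H3K14cr in HOXA, 5 and 9 in HOXC, and 8 and 9 in HOXD. For DPF2 the lowest segment was 1.65-fold in HOXA, 1.33-fold in HOXC and 1.92-fold in HOXD, and for H3K14cr 1.53-fold, 1.23-fold and 1.67-fold in the same order.

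HOXB was divided. Only 13 of its 21 segments were above the flank mean, 12 of them in a row at its low-coordinate end. That block, chr17:46600001-46720000, had 1.53 and 1.48 CPM per tile for DPF2 and 2.04 and 1.97 CPM for H3K14cr. The remaining 90 kb, chr17:46720001-46810000, had 0.619 and 0.586 CPM for DPF2 and 0.673 and 0.647 CPM for H3K14cr. Over the flank mean the first block was 2.05-fold for DPF2 and, for H3K14cr, 2.63-fold, within the range of the other clusters, and the rest was 0.822-fold and 0.867-fold, so the low figure for the whole HOXB window averages a raised block with a stretch at or below flank level. The boundary was placed after the values were seen.

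**Figure D2:**
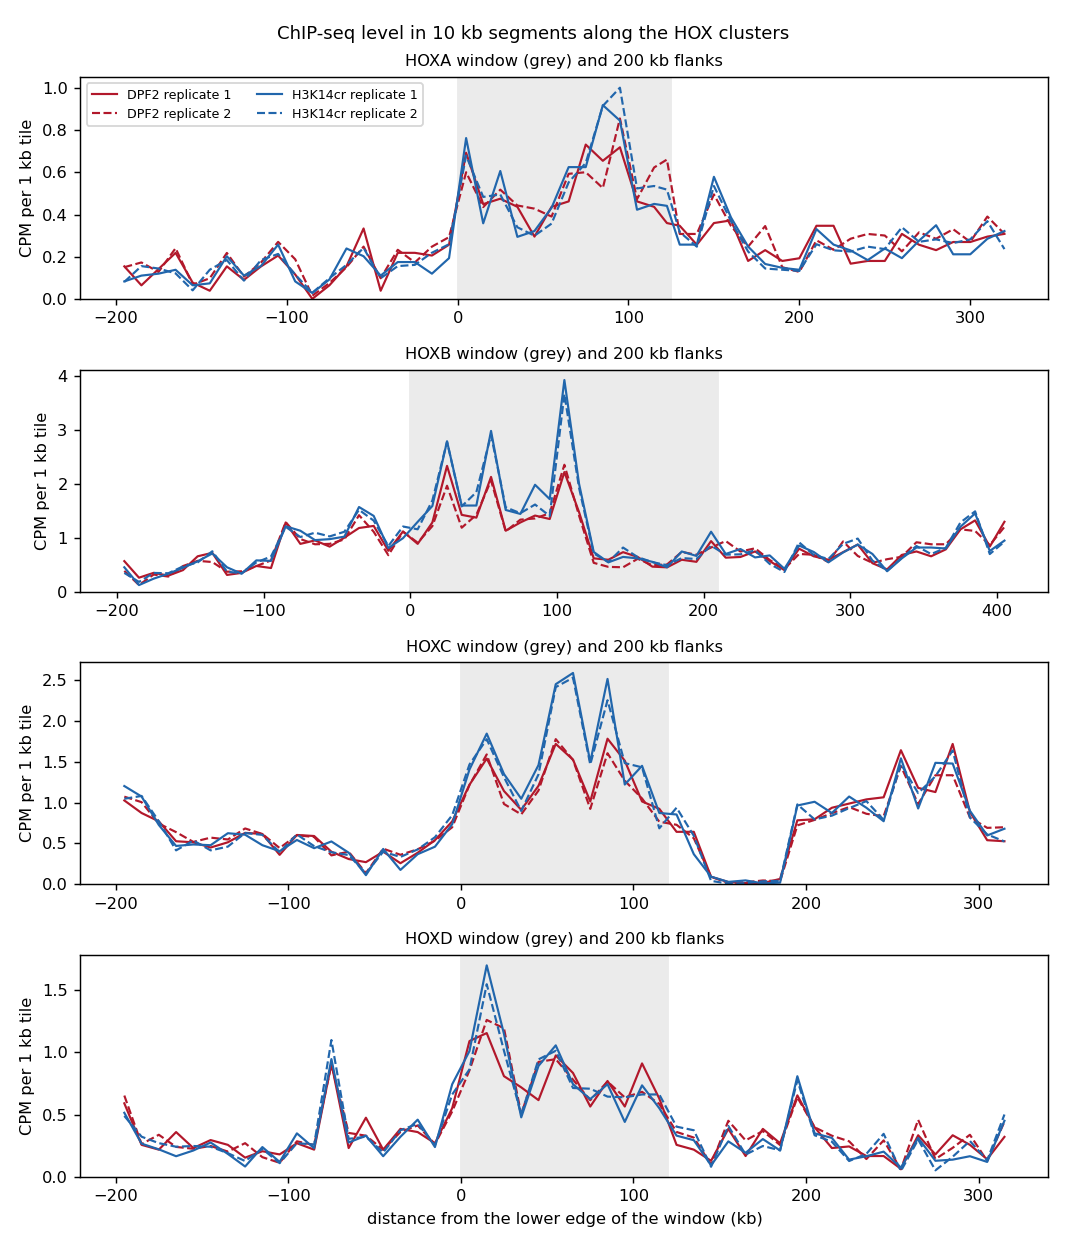
CPM per 1 kb tile averaged in 10 kb segments (y axis, a scale of its own for each cluster) against distance from the lower edge of the window, for the 4 libraries; grey marks the cluster. The rise spans the whole grey area in HOXA, HOXC and HOXD, and in HOXB it stops at 120 kb but for the last 10 kb. The flank of HOXC falls close to 0 over 50 kb.

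The edges of the windows were steep in places. At the lower edge of HOXD the 20 kb inside had 1.12 and 1.06 CPM for DPF2 and 1.36 and 1.21 CPM for H3K14cr, against 0.411, 0.394, 0.492 and 0.458 CPM in the 20 kb outside. At the lower edge of HOXA the values were 0.571 and 0.518 CPM inside for DPF2 and 0.561 and 0.581 CPM for H3K14cr, against 0.231, 0.270, 0.156 and 0.239 CPM outside. Both of these lower edges were crossed within 20 kb in all 4 libraries. The upper edge of HOXA was shallower: 0.512 CPM inside and 0.305 CPM outside for DPF2, and 0.501 and 0.270 CPM for H3K14cr. At the lower edge of HOXB the step was small: the 20 kb inside had 1.09 and 1.06 CPM for DPF2 and 1.44 and 1.42 CPM for H3K14cr, against 0.937, 0.894, 0.901 and 1.03 CPM in the 20 kb outside. From 20 to 50 kb outside that edge DPF2 stood at 1.13 and 1.17 CPM, above its level inside, and H3K14cr at 1.33 and 1.32 CPM. The upper edge of HOXB showed no such step: 0.748 CPM inside and 0.738 CPM outside for DPF2, and 0.808 and 0.716 CPM for H3K14cr.

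Above HOXC the reads nearly stopped. Over chr12:54470001-54520000, 20 kb beyond the window, the libraries held 16 and 28 DPF2 reads and 21 and 23 H3K14cr reads in 50 kb, or 0.0411 and 0.0420 CPM per tile for DPF2 and 0.0386 and 0.0265 CPM for H3K14cr. No read of any library fell in 18 of these 50 tiles. All 5 of its segments were under 0.2 of the flank mean in all 4 libraries. The only other such flank segment was chr7:27040001-27050000 below HOXA, with 0 and 2 DPF2 reads and 3 and 5 H3K14cr reads. Without these segments HOXC was 1.74-fold over its flanks for DPF2 and, for H3K14cr, 2.23-fold, and HOXA stood at 2.36-fold and 2.70-fold. The cause was not tested.

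At 1 kb the clusters held many moderately raised tiles. Tiles at least 2-fold over the flank mean in both libraries made up 32.8% of HOXA for DPF2 and 39.2% for H3K14cr, against 2.25% and 4.25% of its flanks. In HOXB they made up 18.1% and 25.2%, against 5.25% and 6.5% of its flanks. In HOXC they made up 30.8% and 42.5%, against 6.25% and 4.50% of its flanks, and in HOXD 45.8% for both, against 7.0% and 5.25% of its flanks. The median tile was raised as well: for DPF2 it was 2.24-fold in HOXA, 1.29-fold in HOXB, 1.74-fold in HOXC and 2.35-fold in HOXD. For H3K14cr the median tile was 2.32-fold, 1.37-fold, 2.09-fold and 2.45-fold in the same order. The highest 10% of tiles held 22.4% of the DPF2 signal in HOXA, 24.9% in HOXB, 21.8% in HOXC and 23.2% in HOXD, against 25.4%, 26.7%, 27.5% and 30.8% in their flanks. For H3K14cr they held 28.5% in HOXA, 29.9% in HOXB, 24.4% in HOXC and 27.3% in HOXD, against 26.4%, 27.5%, 26.2% and 32.5% in their flanks. This share was below that of the flanks in all 4 clusters for DPF2, but for H3K14cr it was above it in HOXA and HOXB. The share was not corrected for counting noise, which raises it where reads are few. Flank tiles held fewer reads on average than cluster tiles, and the part of read depth in these shares was not tested.

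Raised tiles also joined into longer runs for H3K14cr in HOXB and HOXC. The longest unbroken run at 2-fold or more was 17 kb in HOXB (chr17:46698001-46715000) and 12 kb in HOXC (chr12:54385001-54397000) for H3K14cr, and for DPF2 8 kb (chr17:46618001-46626000) and 5 kb (chr12:54341001-54346000). In HOXA it was 5 kb for DPF2 and 7 kb for H3K14cr, and in HOXD both antibodies had the same run of 7 kb at chr2:176989001-176996000. A run ends at the first tile under the threshold, so counting noise can end it sooner where reads are few. DPF2 replicate 1 was the shallowest library, at 7787444 reads, and the part of depth in these runs was not tested.

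Tested against their own surroundings, few HOX tiles stood out. Enriched tiles had to exceed both their chromosome's mean and the surrounding 20 kb at least 3-fold in both libraries, with a one-sided Poisson p, adjusted over all tiles after Benjamini and Hochberg, no higher than 0.001. For DPF2 2 of 575 tiles were called (0.348%), against 0.221% of all tiles, and 6 of 1600 flank tiles were. For H3K14cr 4 were called (0.696%), against 0.425% of all tiles, and again 6 flank tiles were. These shares are near the background. The 20 kb around a HOX tile is itself raised: against the chromosome mean alone 50 tiles were called for DPF2, against 1.11% of all tiles, and 99 for H3K14cr, against 2.12% of all tiles. Of those, HOXC held 20 and 47, HOXB 23 and 36, HOXD 6 and 9, and HOXA 1 and 7. With a local background of 200 kb, 7 and 25 HOX tiles were called, against 0.373% of all tiles for DPF2 and 0.698% for H3K14cr. Libraries summed before calling gave 3 and 11, against 0.565% and 0.676% of all tiles, and a minimum of 5-fold left 0 and 0, against 0.0532% and 0.101%.

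Of the called tiles, 1 was shared by both antibodies. At chr7:27200001-27201000 in HOXA, DPF2 had 2.44 and 1.73 CPM and H3K14cr 2.02 and 1.61 CPM. Over its surroundings this tile stood at 5.0 and 3.36 times in the DPF2 libraries and 3.79 and 3.06 times in the H3K14cr libraries. The other DPF2 call was chr2:177053001-177054000 in HOXD, at 2.70 and 1.73 CPM for DPF2 and 1.47 and 1.84 CPM for H3K14cr. The other 3 H3K14cr calls were all in HOXA: the neighbours chr7:27135001-27136000 and chr7:27136001-27137000, and chr7:27224001-27225000. The neighbours had 1.03 and 1.2 CPM and 1.54 and 1.35 CPM for DPF2, and 2.11 and 2.07 CPM and 2.11 and 1.73 CPM for H3K14cr. The last tile had 1.54 and 1.73 CPM for DPF2 and 2.11 and 2.48 CPM for H3K14cr, the highest HOXA tile for H3K14cr by mean after chr7:27213001-27214000.

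The highest tiles of each cluster by mean CPM were partly the same for both antibodies. In HOXC chr12:54412001-54413000 led for H3K14cr, at 5.88 and 4.89 CPM, and had 3.60 and 3.38 CPM for DPF2. The highest for DPF2 was chr12:54389001-54390000, at 3.60 and 3.53 CPM for DPF2 and 4.41 and 4.20 CPM for H3K14cr. Both DPF2 values lay below both H3K14cr values in each of these tiles. They overlapped at chr12:54343001-54344000, with 3.47 and 2.85 CPM for DPF2 and 3.22 and 3.80 CPM for H3K14cr.

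HOXB had the highest single DPF2 tile of the clusters, chr17:46624001-46625000, at 4.11 and 3.60 CPM for DPF2 and 3.03 and 2.99 CPM for H3K14cr. It stood at 5.26 times the flank mean for DPF2 and 3.96 times for H3K14cr; limma's adjusted p for it was 0.571. In the same cluster chr17:46655001-46656000 had 3.21 and 2.70 CPM for DPF2 and 5.61 and 5.81 CPM for H3K14cr, and chr17:46619001-46620000 had 3.85 and 2.78 CPM for DPF2 and 4.50 and 6.85 CPM for H3K14cr. The tiles that start at 46619001 and 46624001 are 5 kb apart and differ in which antibody had the higher mean. Of the other highest tiles of HOXB, chr17:46621001-46622000 had 3.21 and 2.55 CPM for DPF2 and 5.51 and 5.41 CPM for H3K14cr, and chr17:46703001-46704000 had 2.95 and 3.53 CPM for DPF2 and 5.51 and 5.18 CPM for H3K14cr.

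In HOXD chr2:176957001-176958000 had 1.80 and 2.18 CPM for DPF2 and 4.60 and 2.82 CPM for H3K14cr, and its neighbour chr2:176958001-176959000 had 1.93 and 1.28 CPM for DPF2 and 3.49 and 3.97 CPM for H3K14cr. These 2 tiles were 12.7-fold over the flanks for H3K14cr, the highest of any HOX tile, and 6.45-fold and 5.24-fold for DPF2. By contrast, chr2:176944001-176945000 had 2.57 and 2.03 CPM for DPF2 and 2.02 and 2.30 CPM for H3K14cr, and the libraries of the antibodies overlapped. The highest DPF2 tile of HOXD, chr2:176962001-176963000, had 2.31 and 2.40 CPM for DPF2 and 2.76 and 2.42 CPM for H3K14cr. The HOXD flanks held higher tiles than the cluster. They reached 14.8-fold over the flank mean for H3K14cr and 9.22-fold for DPF2, against at most 12.7-fold and 7.67-fold in the cluster.

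The antibodies differed in how far the clusters rose above their flanks. The DPF2 fold over flanks divided by the H3K14cr fold was 0.779 in HOXC (95% exact conditional interval 0.736 to 0.825), 0.812 in HOXB (0.774 to 0.852), 0.879 in HOXA (0.801 to 0.964) and 0.927 in HOXD (0.858 to 1.00). The first 3 intervals left out 1. In all 4 clusters both DPF2 libraries had a lower fold over the flanks than both H3K14cr libraries. The folds by library were 2.52 and 2.37 for DPF2 and 2.75 and 2.75 for H3K14cr in HOXA, and 1.56 and 1.49 for DPF2 and 1.92 and 1.83 for H3K14cr in HOXB. They were 2.03 and 1.95 for DPF2 and 2.59 and 2.5 for H3K14cr in HOXC, and 2.69 and 2.57 for DPF2 and 2.96 and 2.74 for H3K14cr in HOXD. With 2 libraries against 2, no exact permutation test can pass a threshold of 0.05, and none is given.

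A DPF2 fold below the H3K14cr fold was usual in raised windows. Of 498 windows of 120 kb at least 1.5-fold over their flanks in all 4 libraries, 84.7% had a ratio below 1, with a median of 0.926 and quartiles of 0.886 and 0.975. In 4 of them (0.803%) the ratio was at or below that of HOXC, and in 243 (48.8%) at or below that of HOXD. Of 477 windows of 125 kb, 127 (26.6%) were at or below HOXA, and of 305 windows of 210 kb, 10 (3.28%) at or below HOXB. The ratios of HOXA and HOXD thus lay among those of raised windows in general, and those of HOXB and HOXC near the low end. HOXB itself did not pass the filter for these windows.

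Single tiles were compared between the antibodies with limma on log2(CPM + 0.5), over all 255612 tiles of the genome that averaged 10 or more reads per library. Of the 575 HOX tiles, 311 could be tested: 16 in HOXA, 135 in HOXB, 112 in HOXC and 48 in HOXD. At an adjusted p of at most 0.05, 0 were higher in DPF2, against 0.202% of all tiles tested, and 14 were higher in H3K14cr (4.50%), against 1.19% of all tiles tested; in either direction 1.39% of all tiles tested were called. At an unadjusted p under 0.05, 3 were higher in DPF2 and 62 higher in H3K14cr, together 20.9% of the HOX tiles tested, against 12.4% of all tiles tested. The read filter passed 311 of 575 HOX tiles, but 255612 of 2598309 of all tiles. Shares at matched read levels were not computed, so the part of read level in these differences was not tested. The quasi-likelihood test of edgeR, run on recovered reads, called 0 and 15, against 578 and 3431 of all 255612 tiles. HOXB held 9 of the 14, HOXC 3, HOXA 1 and HOXD 1. The median log2 difference, DPF2 minus H3K14cr, was -0.24 over the HOX tiles and -0.11 over all tiles tested, and 230 of 311 HOX tiles (74.0%) were lower in DPF2, against 62.7% of all. These figures cover only tiles that passed the filter on low values: with no filter, over all 575 HOX tiles, the median was -0.11 and the share 60.5%, against 0.02 and 48.4% over 2598309 tiles. With median-of-ratios size factors, run on the filtered tiles, the medians of -0.24 and -0.11 became -0.12 and 0.00. The share lower in DPF2 went from 74.0% against 62.7% to 63.7% against 49.8%. The HOX calls became 5, all higher in H3K14cr. Over all tiles tested, those size factors gave 596 calls higher in DPF2 and 765 higher in H3K14cr, so the lean of the calls towards H3K14cr across the genome depends on the scaling. Without H3K14cr replicate 1, 0 HOX tiles were called, against 189 of all tiles tested, and 11.6% of HOX tiles had an unadjusted p under 0.05, against 5.38% of all. Without H3K14cr replicate 2, again 0 were called, against 198 of all tiles tested, and the shares at an unadjusted p under 0.05 were 13.2% and 7.74%. Without DPF2 replicate 2, 28 HOX tiles were called, against 9338 of all tiles tested.

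**Figure D3:**
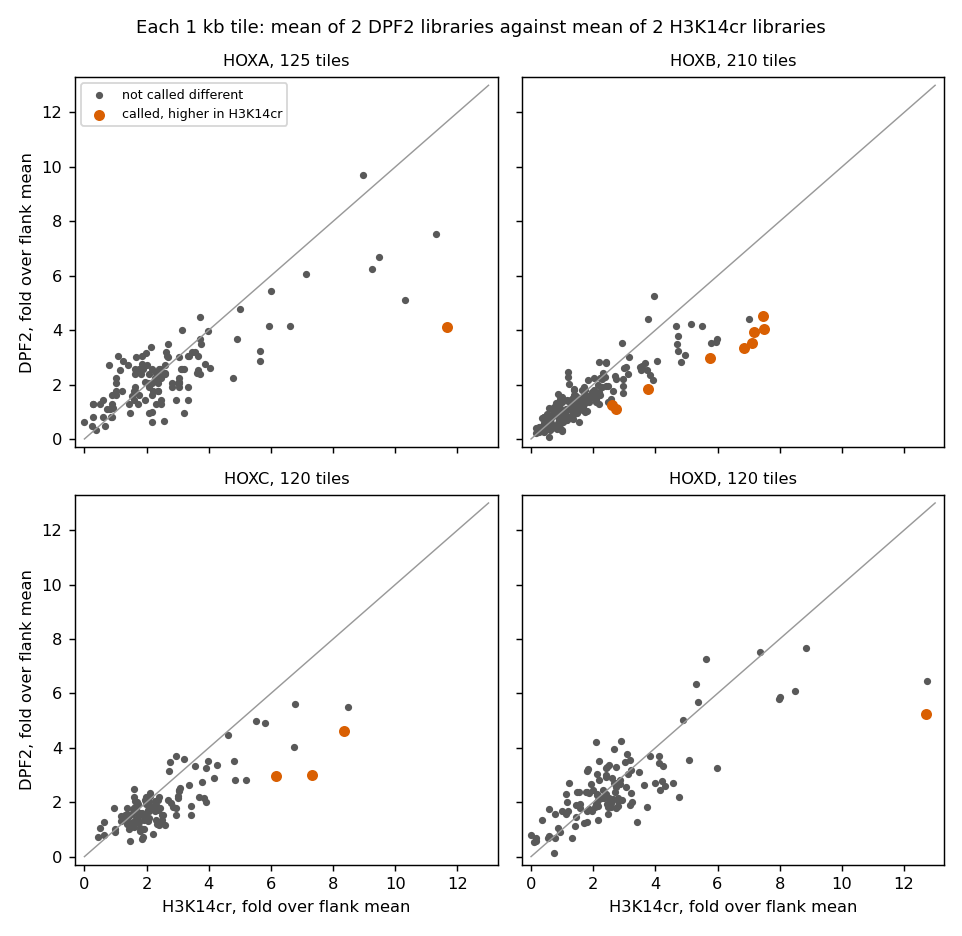
Each point is a 1 kb tile of a cluster, with its DPF2 level (y axis) against its H3K14cr level (x axis), both as mean fold over the flank mean; the line marks equal folds. The 14 called tiles (orange) lie below the line, and the highest tiles spread further to the right than up.

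The smallest adjusted p of a HOX tile was in HOXC. At chr12:54388001-54389000 DPF2 had 1.54 and 2.25 CPM and H3K14cr 4.69 and 4.61 CPM, a log2 difference of -1.12 (SE 0.22, limma adjusted p = 5.42e-04). It adjoins chr12:54389001-54390000, the highest DPF2 tile of HOXC named above, where the log2 difference was -0.24 (SE 0.19, limma adjusted p = 0.658). The other HOXC calls were chr12:54394001-54395000, at 3.08 and 2.78 CPM for DPF2 and 5.24 and 5.35 CPM for H3K14cr, and chr12:54413001-54414000, at 2.05 and 1.73 CPM for DPF2 and 4.04 and 3.80 CPM for H3K14cr. In all 3 the antibodies did not overlap.

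In HOXB the calls fell in 3 groups of neighbouring tiles. At the low-coordinate end, chr17:46619001-46620000, chr17:46621001-46622000 and chr17:46626001-46627000 had log2 differences of -0.68, -0.83 and -1.01. The pair chr17:46654001-46656000 had -0.95 and -0.85. The third group held chr17:46702001-46703000, chr17:46706001-46708000 with 2 tiles, and chr17:46710001-46711000, with log2 differences of -0.95, -0.87, -0.99 and -0.87, and lies within the 17 kb run of raised H3K14cr. The first of these had 2.18 and 3.0 CPM for DPF2 and 5.51 and 5.30 CPM for H3K14cr (limma adjusted p = 0.00207). The tile chr17:46707001-46708000 was low in DPF2 replicate 1, at 0.257 CPM, against 1.58 CPM in replicate 2.

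HOXD and HOXA had 1 call each. In HOXD it was chr2:176958001-176959000, named above, with a log2 difference of -1.03 (SE 0.23, limma adjusted p = 0.00498). In HOXA it was chr7:27213001-27214000, where DPF2 had 1.41 and 0.300 CPM and H3K14cr 2.76 and 1.96 CPM (log2 difference -1.19, SE 0.27, limma adjusted p = 0.00536). The DPF2 libraries themselves lay far apart there. Leaving out either DPF2 library ended 2 of the 14 calls. Without DPF2 replicate 1 they were both in HOXB: the tile that starts at 46626001, at -0.67 (limma adjusted p = 0.262), and the one at 46707001, at -0.26 (limma adjusted p = 0.792). Without DPF2 replicate 2 they were the HOXB tile at 46619001, at -0.48 (limma adjusted p = 0.148), and the HOXA tile, at -0.56 (limma adjusted p = 0.24). Without either H3K14cr library none of the 14 held, with differences of -1.40 to -0.41.

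Tiles of 5 kb, which hold more reads, gave 12 calls among the 115 tested in the clusters. Again 0 were higher in DPF2, against 0.168% of all 5 kb tiles tested, and 12 were higher in H3K14cr, against 0.701% of all. The first was chr12:54390001-54395000 in HOXC, with 77 and 120 DPF2 reads and 183 and 306 H3K14cr reads and a log2 difference of -0.83 (SE 0.11, limma adjusted p = 3.14e-07). Next came the adjoining chr17:46705001-46710000 and chr17:46700001-46705000 in HOXB, at -0.72 and -0.69. Of the 12, HOXB held 6, HOXC 4, HOXA 1 and HOXD 1.

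**Figure D4:**
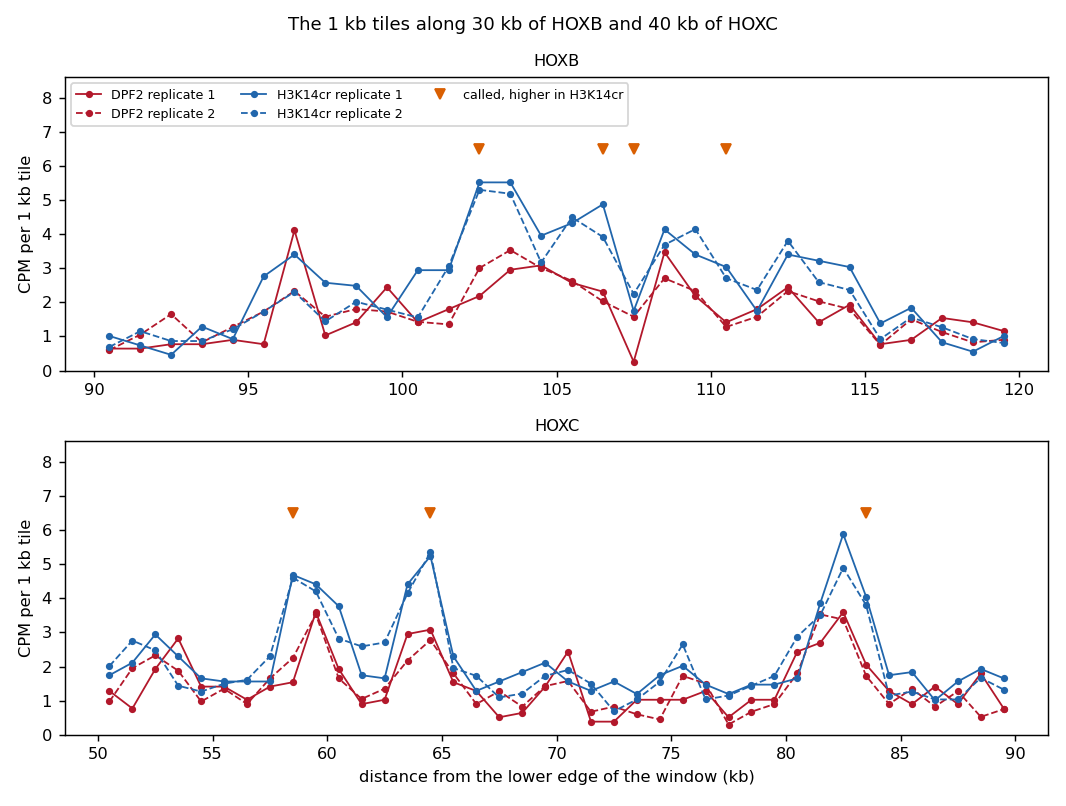
CPM of each 1 kb tile (y axis) against distance from the lower edge of the window, for 30 kb of HOXB and 40 kb of HOXC in the 4 libraries; orange marks called tiles. The antibodies follow the same humps, and the H3K14cr lines stand above the DPF2 lines at the tops of most of them.

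The gap between antibodies was wider at the highest tiles of a cluster than at its other tiles, by amounts that did not always exceed counting error. To keep ranking and measurement apart, tiles were ranked by the level of both antibodies in replicate 1 and measured in replicate 2, and the reverse. In the highest 25% of HOXA tiles the DPF2 fold over flanks divided by the H3K14cr fold was 0.719 in replicate 2 and 0.796 in replicate 1, against 0.971 and 1.01 in its other tiles. In HOXB it was 0.724 and 0.749, against 0.904 and 0.885 in its other tiles. In HOXC it was 0.744 and 0.707, against 0.804 and 0.844, and in HOXD 0.850 and 0.735, against 1.01 and 1.07. The highest 25% had the lower ratio in 8 of 8 such pairs, and its interval lay below 1 in all of them. The 2 pairs of a cluster use the same libraries with their roles swapped, and these count as 1 sample per antibody. The 8 pairs are therefore not independent observations. The intervals of highest and other tiles overlapped in both pairs of HOXC and in 1 of the 2 pairs of each other cluster. Both antibodies were used for the ranking, so a tile can rank high through either. H3K14cr had the wider spread between tiles in each cluster, as given below, and the part of the ranking in these ratios was not tested. Flank tiles were not ranked in this way.

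**Figure D5:**
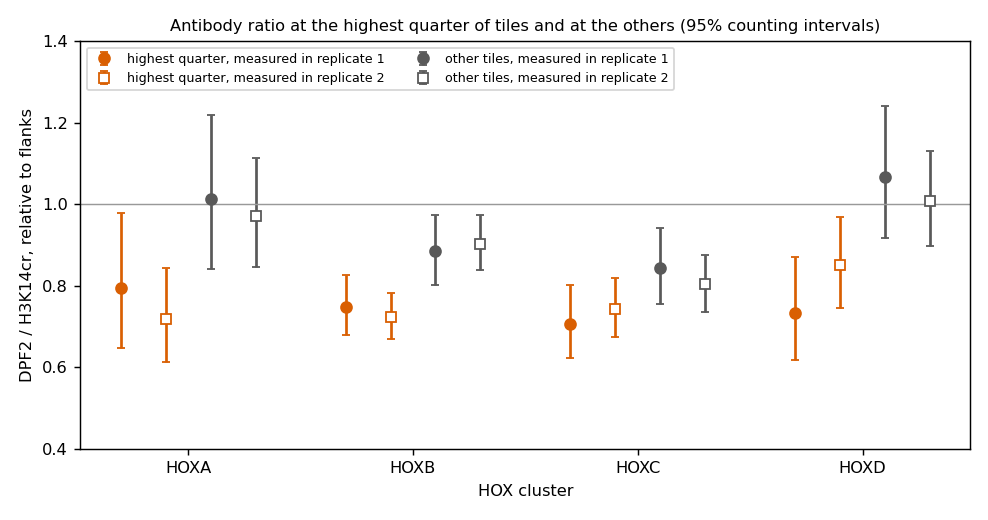
DPF2 fold over flanks divided by H3K14cr fold over flanks (y axis, not starting at 0), for the highest 25% of tiles (orange) and the other tiles (grey) of each cluster; bars are 95% counting intervals. Orange points lie below the grey points of the same cluster and replicate.

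Along each cluster the antibodies followed a like shape. Between antibody means over 1 kb tiles, Pearson's r was 0.805 in HOXA, 0.886 in HOXB, 0.830 in HOXC and 0.802 in HOXD. Corrected for counting noise, which lowers r in sparse tiles, the values were 0.981, 0.954, 0.926 and 0.933, against 1.15, 0.989, 0.977 and 0.940 in their flanks. A value above 1 shows that the correction is loose where reads are few, and on this measure the flanks were no less alike than the clusters. These are descriptions over neighbouring tiles that share mappability and copy number, with no test. The spread between tiles beyond counting noise, as SD over mean, was 0.50 for DPF2 and 0.747 for H3K14cr in HOXA, 0.624 and 0.798 in HOXB, 0.470 and 0.573 in HOXC, and 0.495 and 0.702 in HOXD, lower for DPF2 in each cluster. It was also lower for DPF2 in the flanks of HOXA (0.550 and 0.683), HOXB (0.683 and 0.714) and HOXD (0.925 and 1.15). In the flanks of HOXC it was not (0.775 and 0.766).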

How the data were processed

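K562 libraries were made with antibodies against DPF2 (2) and H3K14cr (2); per the labels' protocols, fixed cells were sonicated, immunoprecipitated and made into libraries. Bowtie2 (no version) and the builds mm9 and hg19 are listed in the submitters' processing notes; coordinates on chromosome 1 run to 249240325, and were read as hg19. How duplicates, mapping quality and binning were handled is not given in the sources used here.

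Per the file contents, deposited signal was scaled by the authors to 10000000 reads per library in 100 bp bins. The value of 1 read was estimated for each library, and division by it returned whole numbers within 0.005 for 100%, 99.9996%, 100% and 100% of the values in DPF2 replicates 1 and 2 and H3K14cr replicates 1 and 2. Bins were summed into 1 kb tiles by midpoint. No molecular identifiers were given, so reads may repeat molecules, and intervals (95%, exact binomial or conditional) cover counting error only.

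The clusters, lists, tests and named tiles were chosen with earlier results of these data known. Named tiles are, in each cluster, the 3 highest by mean CPM of each antibody, every tile called different (at most 10 of smallest adjusted p in each direction over the 4 clusters, here extended to all 14 called) and enriched tiles. limma trend ran on log2(CPM + 0.5), which understates the change of low tiles. The replicate numbers do not pair the libraries: deviations of same-numbered libraries correlated at 0.00147 over tested tiles. The scripts were tested on simulated data. The block of HOXB, the edges, the runs, the windows of equal length and the highest 25% of tiles were chosen after seeing the data. Alternatives were other flank widths, a median, very high tiles left out, other backgrounds, folds, scalings, pseudocounts, filters, tile sizes, edgeR and each library left out. Software was limma 3.58.1 and edgeR 4.0.16 under R 4.3.3, and numpy 2.4.6 and scipy 1.17.1 under Python 3.11.15.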

Additional observations from a re-analysis of the deposited data

Results flagged for a closer look

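The rise of 3 clusters over their flanks differed between the antibodies beyond counting error. The DPF2 fold over flanks divided by the H3K14cr fold was 0.779 in HOXC, 0.812 in HOXB and 0.879 in HOXA, each with an exact conditional interval below 1. In HOXD it was 0.927, with an interval that reached 1.00. In windows of the same length raised in all 4 libraries the median was 0.926 for the length of HOXC, 0.928 for that of HOXB and 0.925 for that of HOXA. The amount of background in each immunoprecipitation was not measured, and its part in these ratios was not tested.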

How the results depend on the processing

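All cluster folds stayed above 1 and all antibody ratios below 1 under every alternative run; 38 of 56 recomputed folds and 31 of 32 recomputed ratios stayed within the counting interval of the value reported. With 100 kb flanks the folds were 1.33 for DPF2 and 1.59 for H3K14cr in HOXB, 2.96 and 3.72 in HOXC, and 2.23 and 2.26 in HOXD. With 500 kb flanks they were 1.61 and 2.0 in HOXB, 1.51 and 1.82 in HOXC, and 2.52 for H3K14cr in HOXA, and the antibody ratio of HOXC was 0.831. Medians of tiles gave 1.60 and 1.75 in HOXB, 2.41 for H3K14cr in HOXC, and 2.99 and 3.26 in HOXD. Without near-empty flank segments, an alternative chosen after seeing the data, HOXC was 1.74 and 2.23. None of the very high tiles lay in clusters or flanks, so leaving them out could change no value. HOXB and HOXD had no near-empty flank segment, so that alternative could not change them either. The counts of folds and ratios that stayed within the interval include these unchanged values.

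Enriched HOX tiles, 2 for DPF2 and 4 for H3K14cr, became 50 and 99 against the chromosome mean alone, 7 and 25 with a local background of 200 kb, 0 and 0 at a fold of at least 5, and 11 for H3K14cr with libraries summed. Called in a single library they numbered 3 to 4 for DPF2 (0.522% to 0.696%), against 0.317% to 0.496% of all tiles. For H3K14cr they numbered 9 to 11 (1.57% to 1.91%), against 0.573% to 0.672% of all tiles.

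The 14 tiles that differed between antibodies stayed lower in DPF2 under each alternative run on 1 kb tiles, and 85 of 140 recomputed calls held. These tiles were picked by the same comparison in the same 4 libraries, so their kept direction is not an independent check. Loosening or dropping the read filter, or adding the replicate block, leaves the log2 difference of a tile unchanged. Those settings could therefore not change its sign. The count of HOX calls was 5 with median-of-ratios size factors, against 1361 of all 255612 tiles tested. With no filter it was 6, against 1469 of 2598309. Leaving out each library gave 0 to 28: 28 without DPF2 replicate 2, of which 1 was higher in DPF2 (range 0 to 1) and 27 in H3K14cr (range 0 to 27), and 0 without H3K14cr replicate 1 or 2. Where 1 library remained, its variance was taken from the other antibody's pair. With the replicate block the count was 17, against 4219 of all 255612 tiles tested. The replicate numbers share no deviation (correlation 0.00147 over all tested tiles and -0.096 over HOX tiles). In HOXA 16 of 125 tiles had enough reads to be tested.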
